A study of Mus musculus with 7 samples.

Results

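The collagen genes were followed through the cells that Wnt1-Cre labels in the mouse embryo. Members were all genes whose symbol in the deposited gene list read Col, a number, a and a number, which gave 44 of the 32285 genes counted. This symbol rule uses no measured value, but the gene family was chosen with earlier results of these data known. They were measured by droplet-based single-cell RNA sequencing in 7 libraries of EGFP-positive, DAPI-negative sorted cells from Swiss-Webster embryos of mixed background. Control embryos carried Wnt1-Cre/+ and ROSA-EGFPf/+, and were taken at E8.5 (the anterior part of the embryo, 1 library, kit version 2), at E9.5 (the pharyngeal apparatus with the heart, 1 library, kit version 3.1) and at E10.5 (pharyngeal arches 2 to 6 with the heart, 2 libraries, kit version 3.1). The other 3 libraries are titled Tbx1 null and carried the same Cre and reporter alleles. They came from E9.5 (1 library, kit version 3) and E10.5 (2 libraries, kit versions 3 and 3.1) in the same tissues as the controls of that stage. Their genotype label reads Tbx1+/-, whereas the study's methods describe Tbx1 null embryos and its supplementary list of libraries gives Tbx1-/-. They are called null here after their titles and that list. The study asked how loss of Tbx1, a transcription factor of the neighbouring pharyngeal tissues, alters cardiopharyngeal neural crest cells. Each library was a pool of at least 2 embryos, and tissue changed with stage: the first arch is in the E9.5 tissue and not in the E10.5 tissue. For the controls, the study lists arches up to the third at E9.5 and up to the sixth at E10.5. The kit differed at E8.5 and, at the later stages, between genotypes, since version 3 was used only for the E9.5 null and the E10.5 null replicate 1. Wnt1-Cre is active in the dorsal neural tube as well as in the neural crest, and neural cells are part of every library.

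Collagens are extracellular matrix proteins whose chains share a repeat of glycine followed by a pair of other residues and wind around each other as trimers. Fibrillar collagens (types I, II, III, V, XI) build the fibres of connective tissue and cartilage, the FACIT collagens (IX, XII, XIV, XX, XXII) sit on the surface of those fibres, and the network collagens include type IV, the sheet of every basement membrane, and type VIII. Type VI forms beaded filaments, type XVIII is a heparan sulfate-bearing collagen of basement membranes, and types XIII, XXIII and XXV are anchored in the cell membrane. In the embryo, neural crest cells leave the neural tube through a matrix of basement membrane and fibrillar collagens, and those that settle in the arches and the outflow tract become mesenchyme, cartilage, smooth muscle and nerve-associated cells.

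The genes for type IV chains lie head to head in pairs, and the promoter sequences of the 4 chains measured above 5 CPM (UMIs per 1000000 UMIs of the summed cells) are shown because the chains of each pair are compared below. Sequences are RefSeq windows on GRCm38.p6 from 250 bases before to 50 bases after the annotated start, written 5′ to 3′ on the strand of the gene, with each CCAAT or TATAAA, read on either strand, in capitals.
Col4a1 (chr8:11312777-11313076, minus strand): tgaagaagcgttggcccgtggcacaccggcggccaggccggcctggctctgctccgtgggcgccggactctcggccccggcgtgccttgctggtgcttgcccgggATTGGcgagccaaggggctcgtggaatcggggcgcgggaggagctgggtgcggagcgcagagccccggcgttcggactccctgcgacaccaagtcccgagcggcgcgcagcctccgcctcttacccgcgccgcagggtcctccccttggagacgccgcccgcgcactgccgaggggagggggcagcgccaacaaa
Col4a2 (chr8:11312555-11312854, plus strand): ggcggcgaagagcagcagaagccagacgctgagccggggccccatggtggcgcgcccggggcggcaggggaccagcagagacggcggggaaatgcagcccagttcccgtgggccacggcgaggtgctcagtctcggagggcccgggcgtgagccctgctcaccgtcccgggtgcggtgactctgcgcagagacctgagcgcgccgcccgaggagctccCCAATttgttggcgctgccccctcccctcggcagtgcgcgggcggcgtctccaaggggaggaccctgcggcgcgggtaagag
Col4a5 (chrX:141475169-141475468, plus strand): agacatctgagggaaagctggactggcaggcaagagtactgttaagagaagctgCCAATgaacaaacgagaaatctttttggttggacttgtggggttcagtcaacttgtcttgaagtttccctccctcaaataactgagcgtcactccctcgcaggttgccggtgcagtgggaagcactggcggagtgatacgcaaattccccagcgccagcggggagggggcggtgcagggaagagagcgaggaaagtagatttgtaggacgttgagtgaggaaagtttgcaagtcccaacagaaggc
Col4a6 (chrX:141474027-141474326, minus strand): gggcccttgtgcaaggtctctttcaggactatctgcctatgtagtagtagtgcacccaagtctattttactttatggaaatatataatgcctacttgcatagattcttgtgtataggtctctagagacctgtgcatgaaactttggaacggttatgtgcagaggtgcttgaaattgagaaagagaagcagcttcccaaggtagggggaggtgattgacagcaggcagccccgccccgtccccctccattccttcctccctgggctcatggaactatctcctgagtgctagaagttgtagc
The Col4a1 and Col4a2 windows overlap by 78 bases, since their starts are 21 bases apart, whereas the starts of Col4a5 and Col4a6 are 1343 bases apart. Of the 44 members, 35 had such a window. CCAAT was found in 13 of them against 37.4% of all 32851 windows, TATAAA in 5 against 13.6%, and GGGCGG, also read on either strand, in 22 against 35.7%. These matches describe letters in the window and were not tested as binding sites.

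After filtering, 5587 to 9557 cells per library and median depths of 14856 to 22882 UMIs per cell were kept, and pairs of libraries shared 0 to 44 barcodes. Cells were placed in 4 classes by UMIs of genes that are not collagens. Mesenchymal cells held at least 2 UMIs of Twist1, Prrx1 and Prrx2 together (2233 to 7081 cells per library). Of the remainder, Sox10 cells held at least 2 UMIs of Sox10, the factor of migrating crest, glia and melanoblasts (191 to 1071 cells), roof plate cells held both Rspo1 and Rspo3 (30 to 214 cells), and neural progenitor cells held at least 2 UMIs of Sox1, Sox2 and Sox3 and none of Sox10 (731 to 2802 cells). A list of 7 mesenchymal markers summed to 356 to 1609 CPM in mesenchymal cells against 54.9 to 141 CPM in Sox10 cells and 14.5 to 35.1 CPM in neural progenitor cells. At E8.5 the classes were less separate, as 1670 of the 2772 mesenchymal cells also held at least 2 Sox10 UMIs. Such cells numbered 728 of 5335 and 646 of 7081 at E9.5 (control, null), 12 of 3310 and 21 of 6614 in the E10.5 controls and 145 of 3192 and 164 of 2233 in the E10.5 nulls, so that their share moved with stage and, at E10.5, with genotype. Of the cartilage markers, Acan, the aggrecan core protein, was at 0.0136 to 0.106 CPM in mesenchymal cells. Sox9, Sox5 and Sox6 carried nearly all of the cartilage marker sums given below, and whether cartilage cells were present was not tested. Tbx1 UMIs were few, at 5.14 and 3.76 CPM over all kept cells of the E10.5 controls, 2.97 and 2.67 CPM in the E10.5 nulls, 0.686 and 0.610 CPM in the E9.5 control and null, and 0.545 CPM at E8.5. In mesenchymal cells the E10.5 genotypes overlapped, at 7.73 and 4.52 CPM in the controls and 6.20 and 6.28 CPM in the nulls. Which part of the gene the null allele lacks is not given in the sources used here, so these counts do not check the labels.

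Of the 44 members, 28 reached 5 CPM in at least 1 class of 1 library, 6 peaked between 1 and 5 CPM and 10 stayed under 1 CPM in all 4 classes, with at least 1 UMI each. The 6 were Col6a1, Col6a2, Col11a2, Col4a4, Col16a1 and Col24a1. The 10 low genes included Col10a1, the collagen of hypertrophic cartilage, with 12 UMIs in all kept cells of the 7 libraries, and Col4a3, with 2 UMIs. Summed over all members, collagens made up 387 to 428 CPM of mesenchymal cells at E9.5 and 877 to 1152 CPM at E10.5. In Sox10 cells the sum was 264 to 271 CPM at E9.5 and 900.0 to 1012 CPM at E10.5, in roof plate cells 610.5 to 859 CPM and in neural progenitor cells 225 to 278 CPM at E10.5. The member with the most UMIs differed by class. At E10.5 it was Col3a1 in the undivided mesenchymal class of every library, Col1a2 or Col4a1 in Sox10 cells and Col18a1 in both neural classes. UMIs tag the 3′ end and were not divided by transcript length, so a level is compared between classes or libraries for the same gene, and between genes only as a ratio that is followed across classes.

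**Figure D1:**
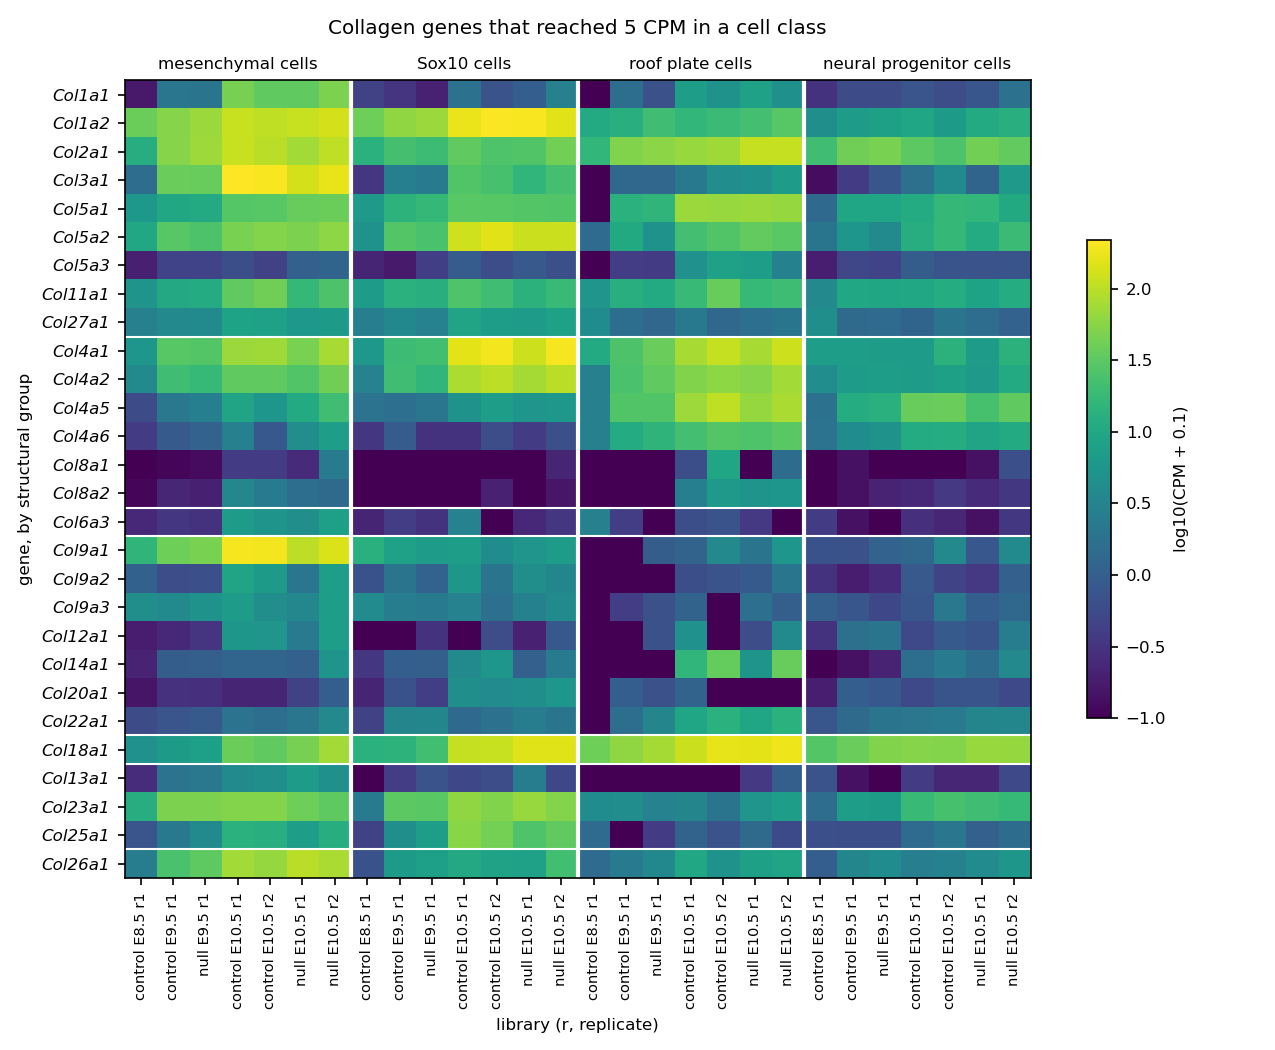
Levels of the 28 collagen genes that reached 5 CPM, as log10(CPM + 0.1), in each of the 4 cell classes (blocks of columns) and 7 libraries (columns). Rows are grouped by structure (fibrillar, network, beaded, FACIT, multiplexin, transmembrane, other). Col3a1 and Col9a1 are brightest in mesenchymal cells at E10.5, Col1a2, Col4a1 and Col5a2 in Sox10 cells, and Col18a1 in roof plate cells, where the E8.5 column rests on 30 cells.

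Mesenchymal cells were compared with neural progenitor cells of the same library to ask which collagens mark the arch mesenchyme. Of 35 members tested, 22 were higher and 5 lower in mesenchymal cells, where 28.9% of all genes tested were higher and 22.4% lower. The median log2 fold change was 1.68 for members and 0.04 for all genes. Here and below a gene was called at a Benjamini-Hochberg adjusted p under 0.05 in edgeR's quasi-likelihood test over all genes, with the library as the replicate and, within this comparison, as a block. Of the 11 fibrillar genes 8 were higher and 1 lower, and of the type IV and VIII genes 4 were higher and 3 lower.

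Col3a1, the chain of type III collagen, had 1.48 CPM at E8.5, 38.1 and 37.1 CPM at E9.5 (control, null), 219 and 206 CPM in the E10.5 controls and 134 and 171 CPM in the E10.5 nulls in mesenchymal cells. Neural progenitor cells held 0.0294 to 6.15 CPM of it, a range that takes in the mesenchymal value at E8.5. Within each library they held less than the mesenchymal cells (log2 fold change 6.16 ± 0.28 SE, edgeR adjusted p = 8.2e-13). Col9a1, which encodes a FACIT chain of cartilage and of eye and ear matrix, reached 15.4 CPM at E8.5, 40.0 and 46.8 CPM at E9.5 (control, null), 198 and 192 CPM in the E10.5 controls and 102 and 143 CPM in the E10.5 nulls. It was at 0.572 to 3.89 CPM in neural progenitor cells (6.08 ± 0.49, edgeR adjusted p = 4.1e-09). Its partners Col9a2 and Col9a3 were in mesenchymal cells at 0.512 to 8.93 and 3.43 to 7.20 CPM. The same direction was called for Col1a1 (4.47 ± 0.57), Col6a3 (4.17 ± 0.79) and Col26a1 (3.79 ± 0.28), the other members of the 5 largest rises, with adjusted p = 1.6e-06, 1.7e-04 and 1.2e-09. Col26a1, a small secreted collagen, had 2.48 CPM at E8.5, 24.3 and 32.4 CPM at E9.5 (control, null), 75.4 and 65.7 CPM in the E10.5 controls and 99.8 and 82.2 CPM in the E10.5 nulls, against 0.882 to 5.71 CPM in neural progenitor cells.

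The 5 members lower in mesenchymal than in neural progenitor cells were Col4a6 (-1.90 ± 0.32), Col4a5 (-1.75 ± 0.23), Col18a1 (-1.32 ± 0.31), Col11a2 (-0.91 ± 0.23) and Col4a4 (-0.90 ± 0.36), with adjusted p from 2.8e-06 to 0.041, and in the control libraries alone 3 members were lower. Col4a5 and Col4a6, minor basement membrane chains, thus went the opposite way from Col4a1 (2.09 ± 0.40) and Col4a2 (1.60 ± 0.32), the chains of all basement membranes. In neural progenitor cells Col4a5 had 1.70 CPM at E8.5, 11.8 and 13.3 CPM at E9.5 (control, null), 36.3 and 37.7 CPM in the E10.5 controls and 23.3 and 33.0 CPM in the E10.5 nulls. Col4a6 had 1.79 CPM at E8.5, 4.09 and 4.99 CPM at E9.5 (control, null), 11.3 and 11.5 CPM in the E10.5 controls and 8.87 and 10.9 CPM in the E10.5 nulls. In mesenchymal cells the respective levels were 0.489 to 20.9 and 0.285 to 7.39 CPM. Col13a1, a membrane collagen of cell junctions, stood on the other side. It had 0.163 CPM at E8.5, 1.75 and 2.10 CPM at E9.5 (control, null), 3.81 and 4.50 CPM in the E10.5 controls and 6.64 and 4.65 CPM in the E10.5 nulls in mesenchymal cells and 0 to 0.617 CPM in neural progenitor cells (3.49 ± 0.67, edgeR adjusted p = 2.0e-04). Col2a1, the major fibrillar collagen of cartilage, was not restricted to mesenchyme. It had 11.9 CPM at E8.5, 53.3 and 70.0 CPM at E9.5 (control, null), 116 and 97.5 CPM in the E10.5 controls and 74.6 and 106 CPM in the E10.5 nulls in mesenchymal cells and 20.5 CPM at E8.5, 40.8 and 47.0 CPM at E9.5 (control, null), 31.4 and 25.6 CPM in the E10.5 controls and 43.0 and 34.2 CPM in the E10.5 nulls in neural progenitor cells, and the difference was 1.00 ± 0.22 (edgeR adjusted p = 8.6e-04).

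Sox10 cells and mesenchymal cells both derive from the crest, and their collagens differed. Of 35 members, 16 were higher and 6 lower in mesenchymal cells, with 19.9% and 11% of all genes in the respective directions, and the median log2 fold change was 0.40 against 0.07 for all genes. Col8a2 and Col8a1, type VIII chains, had 751 and 192 UMIs in the mesenchymal cells of the 7 libraries and 2 UMIs each in the Sox10 cells, which gives ratios of 49.8 (95% counting interval 13.7 to 412) and 12.7 (3.48 to 106). Of the Col8a1 UMIs most came from 1 library, the E10.5 null replicate 2, at 2.30 CPM against 0 to 0.282 CPM in the other 6. Col1a1 followed (4.33 ± 0.58, edgeR adjusted p = 1.2e-05), then Col9a1 (3.47 ± 0.45), Col12a1 (3.33 ± 0.87) and Col3a1 (3.29 ± 0.24). Higher in Sox10 cells were Col20a1, a FACIT collagen (-3.29 ± 0.54), Col25a1, a membrane collagen of neurons (-1.48 ± 0.29), Col18a1 (-1.47 ± 0.30), Col4a2 (-0.96 ± 0.30), Col5a2 (-0.63 ± 0.22) and Col1a2 (-0.43 ± 0.15), with edgeR adjusted p from 1.1e-04 to 0.035. In the control libraries alone 9 of 20 calls that could be refitted stayed, and with all cells thinned to 5000 UMIs 9 members were higher in mesenchymal cells. Leaving out any E10.5 library brought the 6 lower members down to 3.

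The chains of type I collagen separated between these classes. Col1a2 had 39.3 CPM at E8.5, 53.5 and 67.8 CPM at E9.5 (control, null), 114 and 104 CPM in the E10.5 controls and 113 and 133 CPM in the E10.5 nulls in mesenchymal cells. It had 40.0 CPM at E8.5, 61.0 and 69.7 CPM at E9.5 (control, null), 176 and 208 CPM in the E10.5 controls and 205 and 156 CPM in the E10.5 nulls in Sox10 cells. Col1a1, whose chain takes up most of a type I trimer, had 0.0679 CPM at E8.5, 1.93 and 1.83 CPM at E9.5 (control, null), 45.3 and 33.3 CPM in the E10.5 controls and 33.3 and 48.4 CPM in the E10.5 nulls in mesenchymal cells but only 0.104 to 2.72 CPM in Sox10 cells. The ratio of Col1a1 to Col1a2 UMIs was therefore 0.00149 to 0.0174 in the 7 Sox10 sums, whereas it was 0.294 to 0.398 in the mesenchymal sums at E10.5 and 0.0271 to 0.0360 at E9.5. In mesenchymal cells at E8.5 it was 0.00172, from 5 Col1a1 UMIs. Sox10 cells thus held Col1a2 UMIs at the level of mesenchymal cells or above, with few Col1a1 UMIs.

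Against neural progenitor cells, 15 of 35 members were higher and 5 lower in Sox10 cells, with 24% and 27% of all genes in those directions, and the median log2 fold change was 0.95 against -0.03 for all genes. The rises were led by Col25a1 (4.13 ± 0.36), Col1a2 (3.84 ± 0.17), Col9a2 (2.96 ± 0.41), Col4a1 (2.89 ± 0.42) and Col5a2 (2.88 ± 0.24), with edgeR adjusted p from 1.9e-12 to 8.0e-06. Col4a1 had 5.94 CPM at E8.5, 19.3 and 21.1 CPM at E9.5 (control, null), 159 and 191 CPM in the E10.5 controls and 121 and 195 CPM in the E10.5 nulls in Sox10 cells and 6.79 to 14.0 CPM in neural progenitor cells. Col4a2 had 2.97 CPM at E8.5, 20.5 and 15.9 CPM at E9.5 (control, null), 86.0 and 101 CPM in the E10.5 controls and 78.4 and 98.4 CPM in the E10.5 nulls in Sox10 cells. Both genes were thus at E10.5 above every neural progenitor sum. Those lower were Col4a6 (-4.19 ± 0.46), Col12a1 (-2.83 ± 0.93), Col8a2, Col4a5 (-2.37 ± 0.27) and Col16a1 (-1.72 ± 0.37), with edgeR adjusted p from 2.1e-07 to 0.021. For Col8a2 the counts were 2 UMIs in Sox10 cells and 26 in neural progenitor cells, a ratio of 0.171 (counting interval 0.0197 to 0.684). The 5 lower members numbered 2, Col4a5 and Col4a6, with cells thinned to 5000 UMIs and 3 in the control libraries alone.

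The roof plate, the dorsal midline of the neural tube that secretes Wnt and Bmp signals, held at E10.5 more collagen UMIs as a share of all UMIs than the neural progenitor cells. In the 6 libraries with at least 50 roof plate cells, 17 of 35 members were higher and 1 lower, where 18.8% of all genes were higher and 22.1% lower, with a median log2 fold change of 0.80 for members against -0.05 for all genes. Of 7 type IV and VIII genes tested 6 were higher and 0 lower. Col4a5 reached 2.73 CPM at E8.5, 26.9 and 27.3 CPM at E9.5 (control, null), 71.8 and 104 CPM in the E10.5 controls and 64.4 and 83.4 CPM in the E10.5 nulls in roof plate cells (1.24 ± 0.25, edgeR adjusted p = 4.8e-04), and Col4a6 2.73 CPM at E8.5, 11.3 and 14.8 CPM at E9.5 (control, null), 21.7 and 27.6 CPM in the E10.5 controls and 26.2 and 30.3 CPM in the E10.5 nulls (1.30 ± 0.35). Col18a1, the basement membrane collagen that yields endostatin, had 39.6 CPM at E8.5, 60.9 and 76.4 CPM at E9.5 (control, null), 119 and 164 CPM in the E10.5 controls and 158 and 183 CPM in the E10.5 nulls there. In neural progenitor cells it had 28.0 CPM at E8.5, 37.5 and 50.3 CPM at E9.5 (control, null), 53.6 and 53.1 CPM in the E10.5 controls and 67.1 and 64.0 CPM in the E10.5 nulls, and the classes differed by 0.85 ± 0.33 (edgeR adjusted p = 0.046). The largest rises were those of Col8a2 (4.19 ± 0.52), Col8a1 (3.76 ± 0.96), Col14a1 (3.02 ± 0.64), Col4a1 (2.49 ± 0.45) and Col5a3 (2.41 ± 0.44), with edgeR adjusted p from 3.9e-06 to 0.0042. Col8a1 in the roof plate was mostly 1 library, at 9.20 CPM in E10.5 control replicate 2 and 0 to 1.40 CPM in the other 5. The member that was lower was Col23a1 (-1.74 ± 0.43, edgeR adjusted p = 0.0027). Within the control libraries alone 6 members were called higher and 1 lower.

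**Figure D2:**
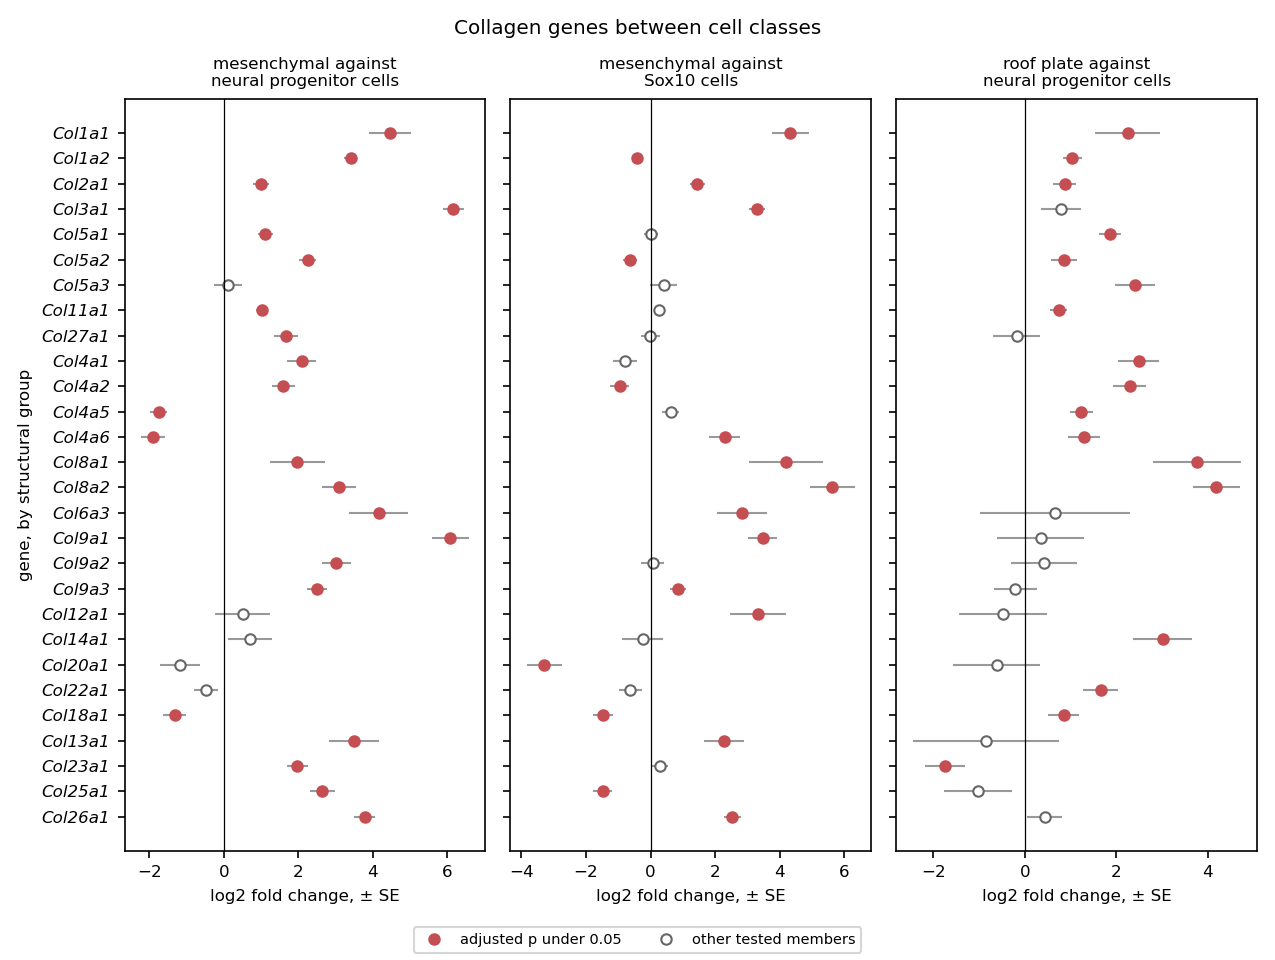
Log2 fold changes (x axis, ± SE) of the 28 genes between cell classes of the same library. Filled points had an edgeR adjusted p under 0.05. Col3a1 and Col9a1 stand at 6.16 and 6.08 in mesenchymal against neural progenitor cells, Col4a5 and Col4a6 are below 0 in mesenchymal and above 0 in roof plate cells, and most network genes lie above 0 in roof plate cells.

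Ratios of UMIs within the type IV and type V pairs were followed across the classes. UMIs of Col4a1 and Col4a2 stood at a ratio of 1.41 to 2.22 in the 7 mesenchymal sums and 0.941 to 2 in the Sox10 sums. The ratio of Col4a5 to Col4a6 was 0.951 to 3.29 in neural progenitor cells, and in Sox10 cells at E10.5 Col4a6 had 1 to 9 UMIs per library, at 0.212 to 0.544 CPM. The library with the most of them, null replicate 2 with 99 UMIs of Col4a5 to 9 of Col4a6, had a ratio of 11 (counting interval 5.57 to 24.8). For type V, which starts collagen fibrils, Col5a1 over Col5a2 was 0.193 to 0.247 in Sox10 cells, 0.572 to 0.759 in mesenchymal cells and 2.05 to 3.14 in roof plate cells at E10.5, ranges that did not overlap. Col5a2 had 4.87 CPM at E8.5, 27.5 and 23.8 CPM at E9.5 (control, null), 124 and 155 CPM in the E10.5 controls and 117 and 119.9 CPM in the E10.5 nulls in Sox10 cells. Col5a1 had 0 CPM at E8.5, 13.4 and 15.1 CPM at E9.5 (control, null), 69.7 and 66.3 CPM in the E10.5 controls and 69.6 and 64.8 CPM in the E10.5 nulls in roof plate cells.

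The share of cells with a Col3a1 UMI had the order mesenchymal, Sox10, neural progenitor, as the CPM did. After each cell was thinned to 5000 UMIs, 34.6 to 56.8% of mesenchymal cells at E10.5 held one (59.1 to 83.3% unthinned). In Sox10 cells it was 6.00 to 9.24% (17.2 to 30.6% unthinned). In neural progenitor cells, which serve as the class that should lack the gene, it was 0.471 to 3.18% (1.82 to 9.13% unthinned), with the highest share in the null replicate 2. Thinning left out at most 155 mesenchymal, 7 Sox10 and 63 neural progenitor cells of a library at E10.5. Col1a2 was held by 39.5 to 56.5% of thinned Sox10 cells (69.6 to 90.6% unthinned) and Col1a1 by 0.198 to 1.09% (1.19 to 7.91%), against 0.217 to 0.910% for Col1a1 in neural progenitor cells (0.547 to 2.76%). The thinned Col1a1 shares of the 2 classes overlapped, so that the Sox10 share is not told apart from background.

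From E9.5 to E10.5, 3 of 11 fibrillar, 3 of 7 network, 3 of 4 beaded and 3 of 9 FACIT genes rose in mesenchymal cells and none of these fell. With genotype as a term, 16 of 39 members tested were higher and 2 lower at E10.5, where 11.4% of all genes were higher and 12.2% lower. The median log2 fold change was 1.06 for members and 0.07 for all genes. The 5 largest were Col8a1 (4.46 ± 1.24), Col12a1 (4.31 ± 0.58), Col6a3 (4.25 ± 0.35), Col1a1 (3.90 ± 0.25) and Col8a2 (3.68 ± 0.39), with edgeR adjusted p from 0.0045 to 0.040. Col8a1 rested on 2 and 4 UMIs at E9.5, and at E10.5 on 21 and 32 UMIs in the controls and 12 and 121 in the nulls. Col6a3, the large chain of beaded filaments, had 0.136 CPM at E8.5, 0.233 and 0.207 CPM at E9.5 (control, null), 6.84 and 5.29 CPM in the E10.5 controls and 4.34 and 7.67 CPM in the E10.5 nulls, and Col12a1, a FACIT collagen of tendon and dense connective tissue, 0.0814 CPM at E8.5, 0.136 and 0.219 CPM at E9.5 (control, null), 5.74 and 5.39 CPM in the E10.5 controls and 2.24 and 7.20 CPM in the E10.5 nulls. Col6a1 and Col6a2 rose with Col6a3, by 2.14 ± 0.39 and 1.74 ± 0.30. Lower at E10.5 were Col15a1 (-2.32 ± 0.41), which stayed under 0.5 CPM, and Col23a1 (-0.66 ± 0.20), which had 12.1 CPM at E8.5, 48.5 and 47.5 CPM at E9.5 (control, null), 52.8 and 52.5 CPM in the E10.5 controls and 39.7 and 32.0 CPM in the E10.5 nulls.

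These stage calls lean on the E9.5 libraries, of which there is 1 per genotype. Without the E9.5 control 0 members were called in mesenchymal cells, and without the E9.5 null 9 of the 18 stayed called, all of them in the direction found with all libraries. No sign changed in either case. The 2 lower members were no longer both called when any library was left out. With cells thinned to 5000 UMIs, or with a cell filter of 200 genes and 5% mitochondrial UMIs, 1 member was lower. Mesenchymal cells with Sox10 UMIs were a larger share at E9.5, and without cells holding a Sox10, Sox1, Sox2 or Sox3 UMI all 17 calls that could be refitted stayed. The fold changes use TMM scaling, which lowers them against the printed CPM by 0.51 on the log2 scale in mesenchymal cells, 0.40 in Hox-positive, 0.38 in Sox10, 0.31 in neural progenitor and 0.29 in roof plate cells. No called member turned its sign when this shift was taken back. The CPM of the stages overlapped, however, for Col23a1 in mesenchymal cells and for Col2a1 in neural progenitor cells. For Col23a1 the printed CPM was higher at E10.5 than at E9.5 in the controls and lower only in the nulls. The first arch is in the E9.5 tissue only, so the test was repeated in cells with a Hoxa2 or Hox 3 UMI, which leaves the Hox-free first arch out. Arches behind the third, which the study lists for the E10.5 controls but not for the E9.5 control, stay in this repeat. There 17 of 37 members were higher and 1 lower (8.28% and 7.58% of all genes), led by Col6a3 (4.48 ± 0.38), Col12a1 (4.28 ± 0.59), Col1a1 (4.16 ± 0.28), Col8a2 (3.89 ± 0.62) and Col9a2 (3.19 ± 0.62), with edgeR adjusted p from 0.0030 to 0.020. Col15a1 was the member that was lower (-2.05 ± 0.56), and it was not called by DESeq2, with doublets kept or without any 1 of the 6 libraries. Without the E9.5 control 0 of these 18 were called, and without the E9.5 null 7, while without the E10.5 control replicate 1 or 2 the higher members numbered 8 and 11. In the Hox-positive cells Col3a1 rose by 2.78 ± 0.22 and Col9a1 by 1.94 ± 0.24, and in all mesenchymal cells by 1.74 ± 0.20 and 1.29 ± 0.26. At E8.5, a stage with another kit and tissue that entered no stage test, mesenchymal Col1a2 was already 39.3 CPM while Col1a1 was 0.0679 CPM.

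In Sox10 cells 10 of 22 members tested were higher and 1 lower at E10.5, with 11.2% of all genes higher and 9.86% lower, and the median log2 fold change was 1.19 against 0.08 for all genes. Col20a1 rose from 0.602 and 0.311 CPM at E9.5 to 4.02 to 5.56 CPM at E10.5 (2.89 ± 0.43, edgeR adjusted p = 0.0020). Col3a1 (2.82 ± 0.26), Col4a1 (2.66 ± 0.25), Col18a1 (2.54 ± 0.19) and Col25a1 (2.30 ± 0.32) followed, with edgeR adjusted p from 6.5e-05 to 0.0015. Col18a1 had 13.5 CPM at E8.5, 14.1 and 21.3 CPM at E9.5 (control, null), 112 and 114 CPM in the E10.5 controls and 151 and 151 CPM in the E10.5 nulls in Sox10 cells. Col25a1 had 0.357 CPM at E8.5, 4.52 and 7.37 CPM at E9.5 (control, null), 55.1 and 43.7 CPM in the E10.5 controls and 25.9 and 33.3 CPM in the E10.5 nulls. The E9.5 and E10.5 libraries did not overlap for either. The member that fell was Col22a1 (-1.21 ± 0.35, edgeR adjusted p = 0.033), from 3.24 and 3.32 CPM to 1.27 to 2.49 CPM. Without the E9.5 control 7 of these 11 calls stayed, and without the E9.5 null 8. The fall of Col22a1 was not called without either E9.5 library or either E10.5 control or by DESeq2, and with cells thinned to 5000 UMIs it was too low to be tested and 0 members were lower.

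The stage effect was then compared between mesenchymal and Sox10 cells in 1 model with an interaction term, a test added after the data were seen. Of 36 members, 3 had a larger effect in mesenchymal cells and 7 a smaller one, where 2.15% and 8.66% of all genes did. The 7 were Col4a1 (difference of log2 effects -1.96 ± 0.11), Col4a2 (-1.66 ± 0.11), Col5a2 (-1.58 ± 0.12), Col23a1 (-1.19 ± 0.25), Col3a1 (-1.06 ± 0.16), Col25a1 (-0.95 ± 0.16) and Col1a2 (-0.72 ± 0.17), with edgeR adjusted p from 2.7e-04 to 0.032. The 3 were Col22a1 (2.24 ± 0.40), Col9a1 (1.94 ± 0.34) and Col5a1 (0.63 ± 0.15), with edgeR adjusted p from 0.012 to 0.035. Col9a1 had 13.1 CPM at E8.5, 8.13 and 6.64 CPM at E9.5 (control, null), 7.20 and 4.12 CPM in the E10.5 controls and 5.46 and 6.71 CPM in the E10.5 nulls in Sox10 cells, so that the classes lay close at E8.5 and apart at E10.5. Without either E9.5 library 3 of these 10 calls stayed, and with cells thinned to 5000 UMIs 1 member had a larger and 4 a smaller effect. Without mesenchymal cells holding a Sox10, Sox1, Sox2 or Sox3 UMI 9 of the 10 stayed.

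**Figure D3:**
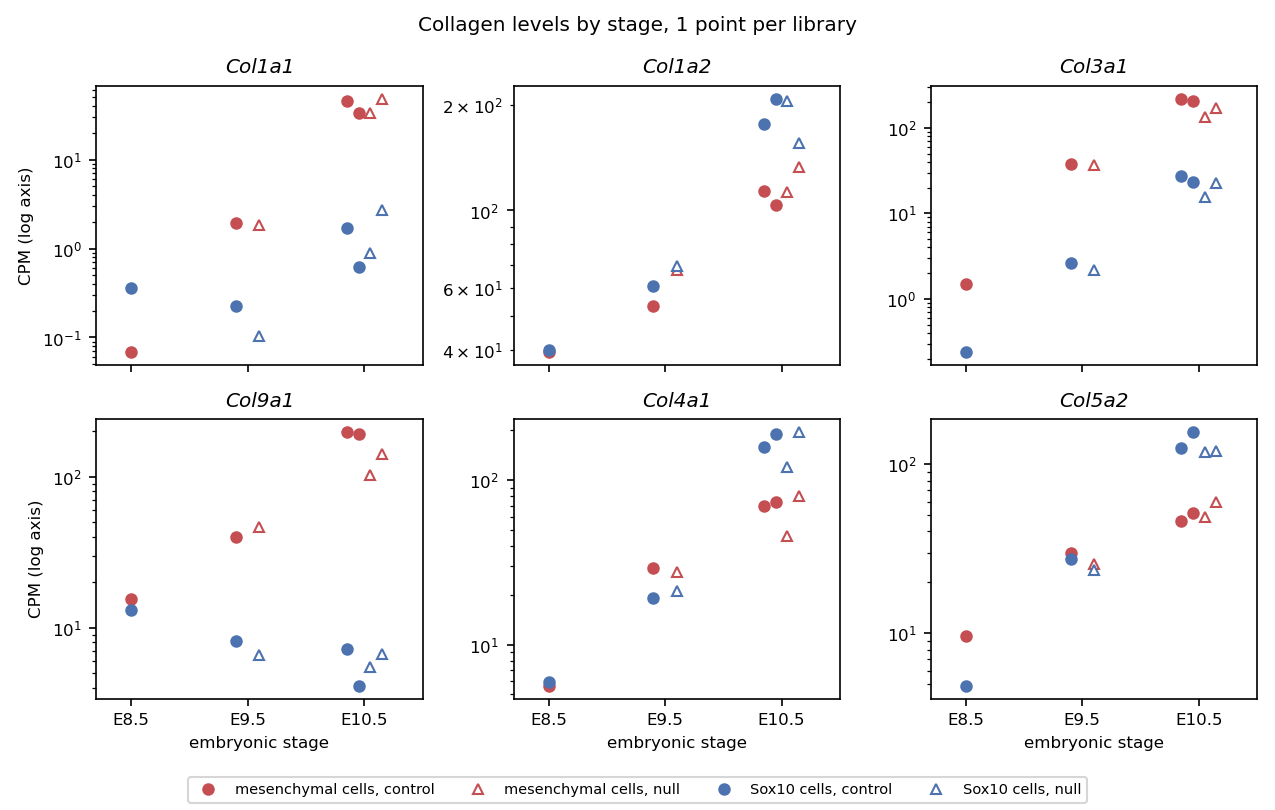
Levels of 6 collagen genes (CPM, log axis) by embryonic stage, 1 point per library, in mesenchymal (red) and Sox10 cells (blue). Filled circles are control and open triangles null libraries. Col1a1 and Col9a1 part between the classes with stage, Col3a1 is higher in both at E10.5, and Col4a1 and Col5a2 lie close together at E9.5 and higher in Sox10 cells at E10.5.

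In neural progenitor cells 5 of 29 members were higher and 1 lower at E10.5 (7.9% and 5.91% of all genes), with a median log2 fold change of 0.45 for members against 0.05 for all genes. Col14a1, a FACIT collagen, had 3 UMIs at E9.5 and 269 at E10.5, a ratio of 30.9 (counting interval 10.5 to 151). It was followed by Col5a2 (1.32 ± 0.28), Col23a1 (1.20 ± 0.20), Col4a5 (1.04 ± 0.22) and Col4a6 (0.91 ± 0.22), while Col2a1 fell (-0.71 ± 0.18), with edgeR adjusted p from 0.0043 to 0.030. Leaving out either E9.5 library ended all 6 calls, and without the E10.5 null replicate 1 the higher members numbered 8. In the roof plate 11 of 20 members were higher and 0 lower (6.7% and 5.62% of all genes), 17 members and 28.6% of all genes passed at an unadjusted p under 0.05, and the median log2 fold change was 1.47 against 0.07 for all genes. DESeq2 gave no member lower either. Col14a1 had 0 and 0 CPM at E9.5 and 15.8, 35.6, 5.23 and 36.3 CPM in the E10.5 controls 1 and 2 and nulls 1 and 2, which is at least 44.4-fold higher when the E9.5 libraries together are set at 3 UMIs. For Col8a2 the same bound was at least 11.2-fold, and Col5a3 went from 2 to 55 UMIs, a ratio of 19.7 (5.19 to 167). Col1a1 (2.33 ± 0.57) and Col5a1 (1.96 ± 0.22) completed the largest rises. Without the E9.5 control 4 of the 11 stayed called, and without the E9.5 null 6. With cells thinned to 5000 UMIs 7 members were higher.

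Within the mesenchymal cells, collagens differed along the axis that Hox genes mark. Cells with a Hox 3 UMI (Hoxa3, Hoxb3 or Hoxd3), a mark of crest of the third and more posterior arches, were compared with the other mesenchymal cells in 6 libraries. Of 36 members, 6 were higher and 9 lower, with 9.03% and 8.78% of all genes, and the median log2 fold change was 0.19 against -0.03 for all genes. Lower were Col9a1 (-1.70 ± 0.06), Col9a2 (-1.53 ± 0.16), Col8a2 (-1.07 ± 0.25), Col2a1 (-0.90 ± 0.07) and Col6a1 (-0.83 ± 0.17) as the 5 largest, with edgeR adjusted p from 5.1e-06 to 0.021. Col9a1 was at 50.5 to 97.1 CPM with and 187 to 346 CPM without a Hox 3 UMI at E10.5, without overlap. Higher were Col4a6 (1.90 ± 0.16), Col14a1 (1.65 ± 0.20), Col4a5 (1.35 ± 0.13), Col7a1 (0.74 ± 0.20) and Col12a1 (0.74 ± 0.20), with edgeR adjusted p from 2.1e-04 to 0.034. Roof plate markers summed to 68.6 to 263 CPM in the Hox 3 cells and 27.5 to 102 CPM in the others at E10.5. When cells with any Sox10, Sox1, Sox2 or Sox3 UMI were left out, Col4a6 (0.57), Col4a5 (0.30), Col14a1 (1.46) and Col7a1 (0.74) were no longer called (edgeR adjusted p = 0.36, 0.23, 0.083 and 0.098), while Col9a1 (-1.30), Col9a2 (-1.38), Col2a1 (-0.76) and Col12a1 (1.12) still were (edgeR adjusted p = 3.4e-06, 8.2e-05, 2.4e-05 and 0.0042). Also lost were Col6a1, Col5a2 and Col27a1, so that 8 of the 15 calls were kept. A threshold of 1 UMI favours deeper cells, and with cells thinned to 5000 UMIs 7 of the 13 calls that could be refitted stayed, among them those of Col9a1, Col9a2 and Col2a1 but not those of Col4a5, Col4a6, Col6a1 and Col12a1. Leaving out the E9.5 control, the E10.5 control replicate 1 or the E10.5 null replicate 1 brought the 6 higher members down to 3. Splitting by Hoxa2, which marks crest behind the first arch, gave 0 members higher and 1 lower of 37 (0.191% and 0.351% of all genes), and 14 passed at an unadjusted p under 0.05 (12.6% of all genes). That member was Col5a2 (-0.35 ± 0.04, edgeR adjusted p = 0.015), and it was not called when the E10.5 control replicate 1 or 2 or the E10.5 null replicate 1 was left out, with cells thinned to 5000 UMIs, in the controls alone or without cells holding a Sox10, Sox1, Sox2 or Sox3 UMI (-0.20, edgeR adjusted p = 0.12).

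Foxf1, a target of hedgehog signals, marks mesenchyme next to the pharyngeal endoderm. In Foxf1-positive cells, compared with the other mesenchymal cells of the same 6 libraries, 11 of 35 members were higher and 6 lower (8.38% and 11.4% of all genes), with a median log2 fold change of -0.09 for members against -0.00 for all genes. The 5 largest rises were Col9a2 (2.31 ± 0.33), Col19a1 (1.82 ± 0.57), Col9a3 (1.81 ± 0.17), Col9a1 (1.30 ± 0.16) and Col12a1 (0.94 ± 0.23), with edgeR adjusted p from 8.5e-05 to 0.048. All chains of type IX collagen were thus higher, and Col11a1 (0.70 ± 0.11) with them. Col9a1 had 65.2 and 73.5 CPM at E9.5 (control, null), 447 and 385 CPM in the E10.5 controls and 197 and 407 CPM in the E10.5 nulls, against 38.5 and 44.3, 151 and 166 and 81.1 and 90.1 CPM in cells without Foxf1. Col9a3 had 9.67 and 10.2, 21.4 and 12.9 and 6.96 and 21.4 CPM, against 3.52 and 4.45, 3.99 and 3.20 and 2.63 and 4.39 CPM. Both genes were higher with Foxf1 in 6 of 6 libraries. Cartilage markers summed to 142 to 265 CPM in the Foxf1-positive cells and 80.4 to 151 CPM in all mesenchymal cells at E10.5, nearly all from Sox9, Sox5 and Sox6 since Acan and Matn1 were near 0. Lower in Foxf1-positive cells were Col4a6 (-2.26 ± 0.26), Col8a2 (-2.08 ± 0.32), Col14a1 (-1.53 ± 0.38), Col4a5 (-1.33 ± 0.21) and Col6a3 (-1.15 ± 0.24), with edgeR adjusted p from 3.0e-04 to 0.020. The sixth, Col18a1 (-0.39 ± 0.10), turned to 0.22 with cells thinned to 5000 UMIs and to 0.21 without cells holding a Sox10, Sox1, Sox2 or Sox3 UMI. Without cells holding a Sox10, Sox1, Sox2 or Sox3 UMI, 6 members were higher, and Col4a6 and Col19a1 were too low to be tested. Of the other 15 called members 8 were kept. Col4a5 (-0.17), Col14a1 (-1.10), Col12a1 (0.62) and Col1a1 (0.14) were no longer called (edgeR adjusted p = 0.52, 0.18, 0.092 and 0.6), nor were Col5a2 and Col13a1, while the type IX genes Col9a1 (0.92), Col9a2 (2.24) and Col9a3 (1.68) remained so (edgeR adjusted p = 0.0010, 5.3e-04 and 5.6e-04). In the controls alone 7 of the 17 calls stayed, with cells thinned to 5000 UMIs 7 of 13 that could be refitted, and leaving out either E10.5 control or the E10.5 null replicate 2 brought the 11 higher members down to 7.

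Cells with Acta2, Tagln and at least 10 UMIs of both together carry smooth muscle transcripts and made up 1.47 to 2.55% of the mesenchymal cells at E10.5. They held 1.41 to 3.16% of the mesenchymal UMIs of all genes there, and 11.3 to 19.99% of the Col1a1, 12.8 to 26.5% of the Col12a1 and 8.97 to 15.6% of the Col3a1 UMIs. Only 3 E10.5 libraries had 50 such cells and entered the test (both controls and null replicate 2), in which 16 of 36 members were higher and 4 lower (16.5% and 17.6% of all genes). The median log2 fold change was 0.74 for members and -0.08 for all genes. Col8a1 (3.28 ± 0.59), Col9a3 (3.21 ± 0.26), Col12a1 (2.94 ± 0.22), Col1a1 (2.57 ± 0.14) and Col14a1 (2.35 ± 0.70) rose most, with edgeR adjusted p from 6.6e-07 to 0.026. Col8a1 rested on 5 and 3 UMIs in the controls and 42 in null replicate 2. Of the Col14a1 UMIs, these cells held 14.1 and 34.6% in the controls. In null replicate 2 they held 2.92%, beside 3.16% of the UMIs of all genes.

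Col1a1 had 82.9 and 75.9 CPM at E9.5 in these cells (control, null), 309 and 187 CPM in the E10.5 controls and 267 and 192 CPM in the E10.5 nulls. Col3a1 had 136 and 175, 800.5 and 708 and 1001 and 842 CPM. Both were above the whole mesenchymal class in each of these libraries. The ratio of Col1a1 to Col1a2 was 0.835 to 0.879 at E9.5 and 1.13 to 2.06 at E10.5, the highest of the classes compared, as Col1a2 was 92.0 to 179 CPM at E10.5 and was not called. Lower than in the other mesenchymal cells were Col23a1 (-1.81 ± 0.30), Col26a1 (-1.46 ± 0.16), Col25a1 (-0.95 ± 0.23) and Col2a1 (-0.56 ± 0.16), with edgeR adjusted p from 7.9e-05 to 0.020. Without the E10.5 control replicate 2 there were 2 such members in place of 4. Col2a1 was not lower in null replicate 2, where these cells held 3.22% of its UMIs and 3.16% of the UMIs of all genes. Markers of other cell types were present behind this gate in some libraries. Myl7, an atrial myosin light chain, was at 790.1 and 1.35 CPM in the E10.5 controls and 0 and 49.9 CPM in the nulls, and at 859 and 2721 CPM at E9.5. Cardiomyocyte markers summed to 291 to 2676 CPM at E10.5, and Pecam1 was at 15.9 to 37.5 CPM with Cdh5 at 0 to 0.451 CPM. The part of these cells in the collagen values was not tested.

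**Figure D4:**
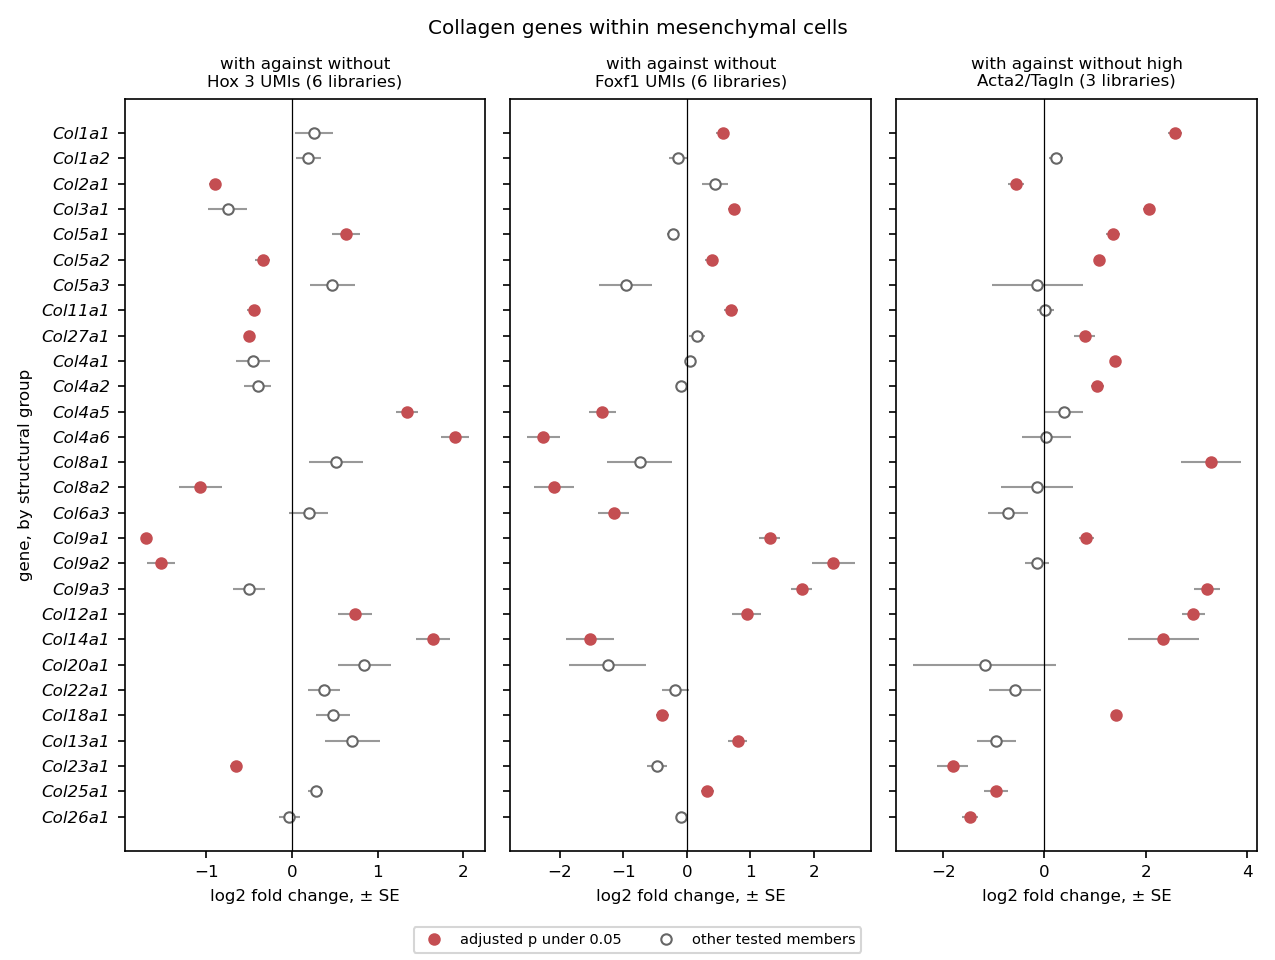
Log2 fold changes (x axis, ± SE) of the 28 genes between mesenchymal cells with and without Hox 3 UMIs, Foxf1 UMIs or high Acta2 and Tagln. Filled points had an edgeR adjusted p under 0.05. Col9a1 is at -1.70 with Hox 3, 1.30 with Foxf1 and 0.83 with Acta2/Tagln, and Col4a6 is at 1.90 with Hox 3 and -2.26 with Foxf1.

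The genotypes were compared at E10.5, where each has 2 libraries. The study lists fewer somites for the embryos of the null replicate 1 than for those of the other 3 libraries, so that they were younger by this measure. The null replicate 1 was made with kit version 3 and the other 3 libraries with version 3.1, and without it 1 member was called higher and 0 lower in mesenchymal cells. In mesenchymal cells 0 of 36 members were called, where 0.1% of all genes were called in either direction, and 10 members passed at an unadjusted p under 0.05, as did 15% of all genes. A p that misses the threshold with 2 libraries each does not show equal levels. DESeq2 called 2 members lower, and without the filter on low counts edgeR called 4 higher and 4 lower. The median log2 fold change of the members was -0.20, and that of all genes -0.02. TMM scaling lowers these fold changes against the printed CPM by 0.19. Both nulls were above both controls for 11 members and below for 8, and the same held for 36.6% and 14.0% of all genes tested.

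Among the 10, 6 were lower in the nulls. Col11a1, a fibrillar chain of cartilage, was at 33.8 and 41.6 CPM in the controls and 16.7 and 25.6 CPM in the nulls (log2 fold change -1.04 ± 0.25, edgeR adjusted p = 0.22). Col9a1 was at 198 and 192 CPM in the controls and 102 and 143 CPM in the nulls (-0.87 ± 0.22, edgeR adjusted p = 0.23). Col3a1 was at 219 and 206 CPM in the controls and 134 and 171 CPM in the nulls (-0.67 ± 0.21, edgeR adjusted p = 0.25). In each the groups did not overlap, which picking genes by p in the same libraries favours, and none passed the threshold. The same was seen for Col8a2 (-1.20 ± 0.35), Col23a1 (-0.73 ± 0.23) and Col27a1 (-0.62 ± 0.22), with edgeR adjusted p from 0.25 to 0.29. The other 4 were higher in the nulls, Col20a1 (2.12 ± 0.58), Col4a6 (1.54 ± 0.60), Col5a3 (1.01 ± 0.41) and Col4a5 (0.91 ± 0.34), with edgeR adjusted p from 0.24 to 0.32. Col4a5 was at 8.92 and 5.65 CPM in the controls and 10.8 and 20.9 CPM in the nulls. Neural and Sox10 transcripts moved with these values: in mesenchymal cells Sox10 was at 1.27 and 1.41 CPM in the controls and 15.8 and 35.5 CPM in the nulls, Sox2 at 31.8 and 6.34 CPM in the controls and 67.1 and 141 CPM in the nulls, and Tubb3, a neuronal tubulin, at 55.8 and 25.0 CPM in the controls and 99.0 and 515 CPM in the nulls. Cells with a Hox 3 UMI also differed in number, at 1205 of 3310 and 1681 of 6614 mesenchymal cells in the controls. In the nulls they were 1977 of 3192 and 1801 of 2233. In the cells without a Hox 3 UMI, Col9a1 was at 266 and 233 CPM in the controls and 187 and 346 CPM in the nulls. For this gene the genotypes thus overlapped there. The part of these transcripts and cell numbers in the genotype differences was not tested. With cells holding any Sox10, Sox1, Sox2 or Sox3 UMI left out, 0 members were called.

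**Figure D5:**
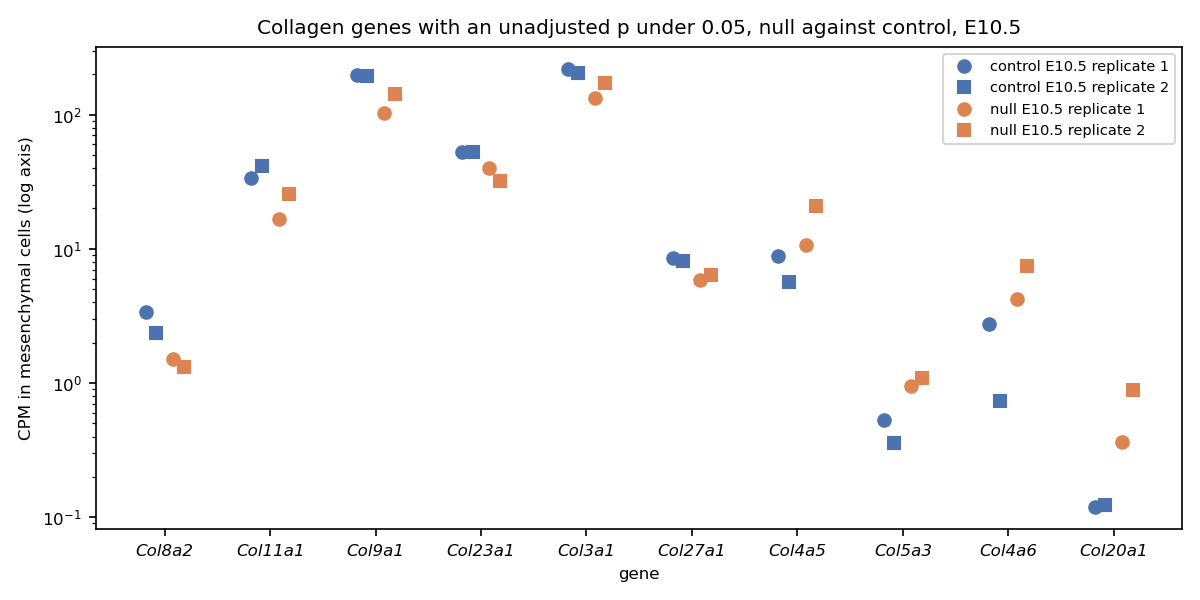
Levels (CPM, log axis) of the 10 collagen genes with an unadjusted p under 0.05 between null and control mesenchymal cells at E10.5, 1 point per library (blue, control; orange, null; circles, replicate 1; squares, replicate 2). Both orange points lie below both blue points for Col8a2, Col11a1, Col9a1, Col23a1, Col3a1 and Col27a1 and above them for Col4a5, Col5a3, Col4a6 and Col20a1, and none had an edgeR adjusted p under 0.05.

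No member was called between genotypes in the other classes either. The counts were 0 of 24 in Sox10 cells (0.0395% of all genes), 0 of 29 in neural progenitor cells (0% of all genes), 0 of 17 in roof plate cells (0.198%), 0 of 36 in Hoxa2-positive (0.0458%), 0 of 34 in Hox 3-positive (0.027%), 0 of 26 in Foxf1-positive (0.0629%) and 0 of 23 in Acta2/Tagln-positive mesenchymal cells (0.141%) by edgeR. The last of these rests on 47 cells in the null replicate 1 and 57 in the null replicate 2. At an unadjusted p under 0.05 the counts were 3, 1, 2, 8, 7, 3 and 6, in the same order, beside 9.82%, 6.54%, 10.3%, 13.8%, 12.4%, 11.3% and 9.95% of all genes. DESeq2 called 2 members lower in the Hoxa2-positive and 1 in the Hox 3-positive cells. With a replicate block, edgeR called 1 lower in Foxf1-positive and 1 higher and 1 lower in Acta2/Tagln-positive cells. Without the filter on low counts it also called members in some of these classes, as given below. The difference of the genotype effect between mesenchymal and neural progenitor cells was called for 0 of 36 members by edgeR (0.044% of all genes), with 13 at an unadjusted p under 0.05 (10.9% of all genes) and 1 member higher and 1 lower by DESeq2. Single libraries moved these counts. Without the E10.5 null replicate 2, 2 members were called higher and 8 lower in Foxf1-positive cells, and without the E10.5 control replicate 2 the difference between the classes was called for 2 members in the positive and 7 in the negative direction. At E9.5, with 1 library per genotype, no test and kit version 3 in the null against 3.1 in the control, so that kit and genotype cannot be told apart, 11 members had at least 10 CPM in mesenchymal cells of either library. None differed 2-fold, where 0.219% of genes at that level were at least 2-fold higher and 0.466% at least 2-fold lower in the null. The scaled log2 ratios of null to control ran from -0.35 for Col4a2 to 0.36 for Col26a1, with a median of 0.07.

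The enzymes, receptors and partners of collagens were counted beside them. Of 32 genes for collagen modification, folding, processing and cross-linking, 30 were tested between mesenchymal and neural progenitor cells, with 21 higher and 0 lower in mesenchymal cells (28.9% and 22.4% of all genes) and a median log2 fold change of 0.85 against 0.04 for all genes. Against Sox10 cells 15 of 30 were higher and 4 lower (19.9% and 11% of all genes), and without the E10.5 null replicate 1 the numbers were 9 and 2 of 27. The 4 lower also fell to 1 without the E10.5 control replicate 1. In Acta2/Tagln-positive cells 22 of 29 were higher and 0 lower, where 16.5% and 17.6% of all genes were called. From E9.5 to E10.5 in mesenchymal cells 6 of 30 were higher and 5 lower (11.4% and 12.2% of all genes), with a median of -0.15 against 0.07 for all genes. In neural progenitor cells 1 of 24 was higher and 10 were lower at E10.5 (7.9% and 5.91% of all genes). These stage calls rested on single libraries. Without the E9.5 control 0 genes were called in either class, and without the E9.5 null 1 was higher in mesenchymal and 1 lower in neural progenitor cells. The 5 lower in mesenchymal cells were also 0, 2 and 3 without the E10.5 control replicate 1, the control replicate 2 and the null replicate 2. Of 10 collagen receptors 7 were tested between mesenchymal and neural progenitor cells, with 5 higher and 1 lower, beside the shares of all genes given above. Of 11 laminin, nidogen, perlecan and agrin genes, which join type IV collagen in basement membranes, 7 of 10 tested were higher and 0 lower in Sox10 cells at E10.5 than at E9.5 (11.2% and 9.86% of all genes). Without the E9.5 control the number higher was 3, and without the E9.5 null, the E10.5 control replicate 1 or the E10.5 null replicate 2 it was 4. In Acta2/Tagln-positive cells 9 of 11 were higher and 0 lower (16.5% and 17.6% of all genes), and in Foxf1-positive cells 1 of 11 was higher and 2 lower (8.38% and 11.4%). Leaving out single libraries gave 1 to 2 higher and 0 to 2 lower in the Foxf1-positive cells. Between genotypes in E10.5 mesenchymal cells 0 genes of these lists were called by edgeR.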

How the data were processed

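EGFP-positive cells of 7 libraries were profiled with the droplet-based 10x Genomics 3′ assay. Per the submitters' processing notes, reads were aligned and counted with Cell Ranger 6.0.1 against mm10, and the authors deposited filtered matrices of UMI counts per gene and cell, raw and not normalised. Cells under 1000 detected genes or above 10% mitochondrial UMIs were left out here, and the highest Scrublet scores (0.8% per 1000 barcodes) were removed as doublets, which left 53544 of 65862 barcodes. Total UMIs per library were 140264662 to 234844769. UMIs were summed per library and class, with at least 50 cells per sum in the class and split comparisons. The stage and genotype tests had no such minimum, and 1 of their sums was smaller, with 47 cells (Acta2/Tagln-positive cells of the E10.5 null replicate 1). Sums were tested with edgeR 4.0.16 (R 4.3.3), using TMM scaling, filterByExpr and the quasi-likelihood test across all genes, with Benjamini-Hochberg adjustment. Class and split comparisons had the library as a block, and stage comparisons had genotype as a term. Groups came from the sample labels. Pools of embryos are the replicates. In the genotype tests within a class, p-values measure the spread between these pools. With the library as a block, they measure how far the difference varied between libraries, which can also differ in stage, tissue, genotype and kit. The stage fits take the stage effect as equal in both genotypes, as E9.5 has 1 library of each. The procedure was checked on simulated counts, where most of the changes put in were missed in the mesenchymal genotype and stage tests.

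A CPM value is the UMI count per 1000000 UMIs of the summed cells. Counting intervals are exact at 95% and, like floors of 3 counts, cover counting error only. At E9.5 the genotypes have 1 library each and were compared as log2 ratios of scaled CPM with 0.5 UMIs added, among genes with at least 10 CPM in either. The members follow the symbol rule alone. The members, the gene lists and the classes were chosen with earlier results of these data known. Genes given with values in every library were a fixed set of 24, where they reach 5 CPM, plus the 5 largest rises and falls among the called members of each test, and the genotype members with an unadjusted p under 0.05 were named after their values were seen. The stage tests in Sox10, neural progenitor and roof plate cells and their interaction were added after seeing the data. Alternatives covered DESeq2 1.42.0, scaling, filters, doublets, depth, thresholds, the replicate block and leaving out libraries. Reads of Col20a1, Col24a1 and Col26a1 overlap another annotated gene on the same strand and are uncertain to that extent.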

Additional observations from a re-analysis of the deposited data

Results flagged for a closer look

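The stage effect, the log2 difference of E10.5 from E9.5, differed between mesenchymal and Sox10 cells by an interaction term in edgeR's quasi-likelihood test (adjusted p under 0.05, 6 libraries) for 10 collagen genes, and these differences are listed for a closer look. The effect was larger in mesenchymal cells for Col22a1 by 2.24, for Col9a1 by 1.94 and for Col5a1 by 0.63. It was smaller in mesenchymal cells for the basement membrane chains Col4a1 (-1.96) and Col4a2 (-1.66). The fibrillar chains Col5a2 (-1.58), Col3a1 (-1.06) and Col1a2 (-0.72) and the membrane collagens Col23a1 (-1.19) and Col25a1 (-0.95) had smaller effects in mesenchymal cells as well. The test was added after the data were seen, and 3 of the 10 calls stayed without either E9.5 library. No group has more than 2 libraries, so no outlier test within a group was run.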

How the results depend on the processing

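With DESeq2's size factors in edgeR and a mesenchymal threshold of 4 UMIs, all 38 counts of called members stayed within 1.5 times. The counts also stayed so with Acta2/Tagln sums of 5 or 20 (4 of 4 each), with E10.5 libraries alone (8 of 8), with Sox10 cells taken whatever their mesenchymal UMIs (8 of 8), and for the E9.5 ratios with 5 UMIs added or at least 50 CPM (2 of 2 each). The settings below moved counts, and the cause was not tested.

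Between genotypes, where edgeR called 0 members in each class, DESeq2 called 2 lower in mesenchymal, 2 lower in Hoxa2-positive and 1 lower in Hox 3-positive cells, and 1 higher and 1 lower for the difference between mesenchymal and neural progenitor cells. Without the filter on low counts, the numbers higher and lower were 4 and 4 in mesenchymal, 0 and 1 in Sox10, 3 and 3 in Hoxa2-positive, 1 and 2 in Foxf1-positive and 1 and 1 in Acta2/Tagln-positive cells, and 2 and 6 for the difference. The replicate block gave 1 lower in Foxf1-positive and 1 higher and 1 lower in Acta2/Tagln-positive cells and changed no other count. Same-numbered samples deviated together with a correlation of 0.056 to 0.40 over genes with at least 50 summed UMIs in the 8 classes, but with 2 pairs and no label that ties them they share only a number.

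With control libraries alone, mesenchymal against neural progenitor cells gave 3 lower in place of 5, mesenchymal against Sox10 cells 7 higher and 2 lower (16 and 6), Sox10 against neural progenitor cells 3 lower (5), roof plate cells 6 higher (17), the Hox 3 split 5 lower (9) and the Foxf1 split 5 higher (11). With cells thinned to 5000 UMIs, mesenchymal against Sox10 cells gave 9 higher (16), Sox10 against neural progenitor cells 2 lower (5), the Foxf1 split 7 higher (11), and the stage effect 1 lower in mesenchymal (2), 0 lower in Hox-positive (1), 0 lower in Sox10 (1) and 7 higher in roof plate cells (11), with 1 and 4 for the interaction (3 and 7). The thinned Acta2/Tagln split was not run, as 1 library was left. For the Hoxa2 split, which had 1 lower, DESeq2 gave 4, no filter 5, doublets kept 3, and cells without a Sox10, Sox1, Sox2 or Sox3 UMI, a setting added after seeing the data, 3, none of them Col5a2. That last setting gave 6 higher (11) in the Foxf1 split, and it left 2 libraries for the Acta2/Tagln split. DESeq2 gave 0 lower with stage in Hox-positive and in Sox10 cells (1 each) and 5 positive interactions (3). Doublets kept gave 0 lower in Hox-positive cells (1), and a cell filter of 200 genes and 5% mitochondrial UMIs gave 1 lower in mesenchymal cells (2). Col18a1 reversed in the Foxf1 split, from -0.39 to 0.22 when thinned and 0.21 without cells holding those Sox UMIs.

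Leaving out 1 library at a time gave the following ranges of members higher and lower. Mesenchymal against neural progenitor cells gave 21 to 22 and 4 to 5, mesenchymal against Sox10 cells 12 to 17 and 3 to 7, Sox10 against neural progenitor cells 15 to 19 and 4 to 5, and roof plate against neural progenitor cells 12 to 17 and 1. The Hoxa2 split gave 0 and 0 to 1, the Hox 3 split 3 to 6 and 7 to 10, the Foxf1 split 7 to 10 and 4 to 6, and the Acta2/Tagln split 15 to 16 and 2 to 4. Stage gave 0 to 21 and 0 to 1 in mesenchymal and the same ranges in Hox-positive cells, 7 to 13 and 0 to 1 in Sox10 cells, 0 to 8 and 0 to 2 in neural progenitor cells, 4 to 12 and 0 in roof plate cells, and 0 to 4 and 3 to 9 for the interaction. Genotype gave 0 to 1 and 0 in mesenchymal cells, 0 to 1 and 0 to 2 in Sox10 cells, 0 and 0 to 1 in roof plate cells, 0 to 3 and 0 to 8 in Foxf1-positive cells, 0 to 2 and 0 to 7 for the difference between classes, and 0 in neural progenitor cells. In Hoxa2-positive, Hox 3-positive and Acta2/Tagln-positive cells it gave 0 to 1 and 0 to 1. Where an arm was left with 1 library, that library is assumed to vary like the others. Depth limits the 10 members that stayed under 1 CPM in the 4 classes. Tests left some of them out as too low and took in others. Among these, Col7a1, Col15a1, Col17a1 and Col19a1 were each called in at least 1 comparison.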
